A study of Homo sapiens with 10 samples.

Results

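The replication-dependent histone genes supply the histones that package newly copied DNA. They were taken here as the GENCODE protein-coding genes of chromosomes 1 and 6 whose symbols start with H2AC, H2BC, H3C or H4C and a digit, together with H1-1 to H1-6. This gave 68 of 19970 protein-coding genes, of which 17 encode H2A, 18 encode H2B, 13 encode H3, 14 encode H4 and 6 encode the linker histone H1. H3K27ac had been profiled by ChIP-seq, as peak lists, in the established HER2 breast cancer cell lines SKBR3 and MDA-MB-453, untreated or given TWEAK, the ligand of the Fn14 receptor. Per the labels the cells were starved for 8 h in Opti-MEM and then received 10 ng/ml TWEAK for 48 h, with a fresh dose after 24 h, and each line and treatment had 2 libraries. The labels do not say whether the libraries came from separate cultures, so p-values measure the spread between these libraries, which may be technical.

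H3K27ac, the acetylated lysine of histone H3 found at active promoters and enhancers, is a mark carried by the product of these very genes. Replication-dependent histone genes are short, lack introns in their main transcripts, are switched on in S phase by NPAT after cyclin E and CDK2 act on it, and end their mRNAs in a stem-loop in place of a poly(A) tail. Their clusters gather in the nucleus at histone locus bodies. The H2A and H2B genes often lie head to head as pairs that share 1 promoter stretch.

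The 8 lists held between 36148 and 51687 peaks, with 43684 to 51687 in SKBR3 and 36148 to 37813 in MDA-MB-453. Peaks lay within 1 kb of an annotated start of between 11148 and 11617 protein-coding genes. The lists give no read counts, so sequencing depth is unknown and no interval for counting error could be given. Each gene was described by its best promoter peak, the highest scoring one within 1 kb of a start: its presence, its width and its percentile, which is its place by score within its own list, with 100 for the strongest peak and 0 entered where the gene had none. Of 7 breast epithelial markers, all had a promoter peak in all 8 lists, ERBB2 among them. ESR1 and the 3 immune markers had none in any list, whereas 1 of 3 fibroblast markers (COL1A1) and 1 of 2 endothelial markers (CDH5) had one in all 8.

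To determine how much of the histone gene family carried H3K27ac, presence was counted first. A promoter peak was present in all 8 lists for 61 of 68 histone genes, against 49.6% of all protein-coding genes. It was present in no list for 4 histone genes (35% of all genes) and in 1 to 7 lists for 3 (15.4% of all genes). Per list, 62 histone genes had a peak in each SKBR3 list and 63 or 64 in each MDA-MB-453 list. The start itself lay inside a peak in all 8 lists for 59 genes, and the whole main transcript, 386 to 2224 bp long with a median of 486 bp, lay under a peak in all 8 lists for 58.

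**Figure D1:**
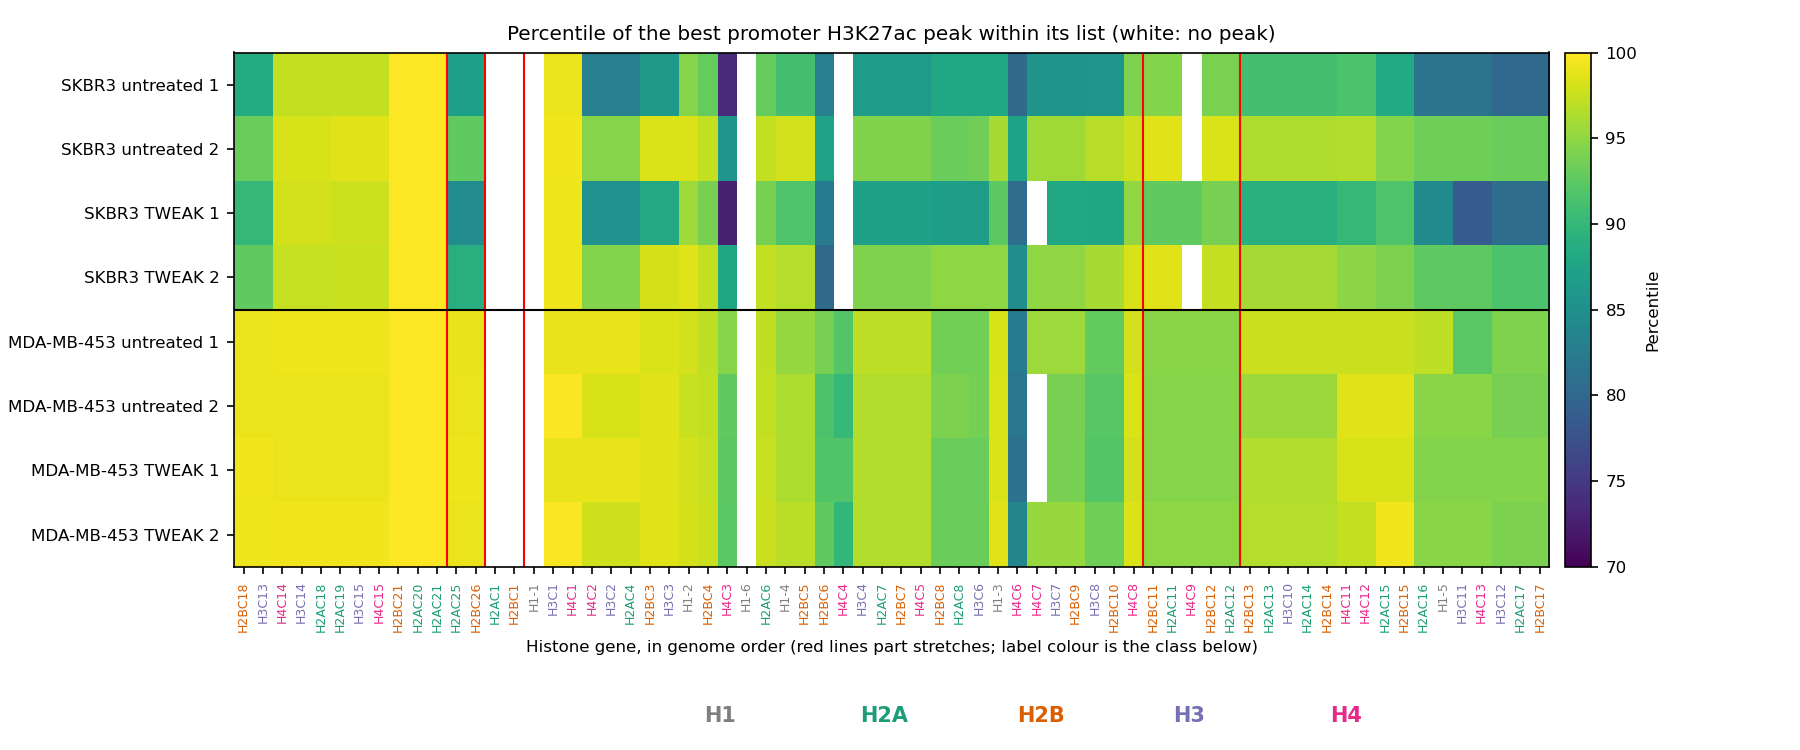
Percentile of the best promoter peak of each of the 68 histone genes (columns, in genome order) in each of the 8 lists (rows), with white where a gene had no peak and colours limited to 70 to 100. The H2BC21, H2AC20 and H2AC21 columns are at 99.9 in all 8 lists, 4 columns are white throughout, and H4C4 is white in the 4 SKBR3 rows.

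The 4 histone genes without a peak in any list were H2AC1, H2BC1, H1-1 and H1-6. H2AC1 and H2BC1 are the head to head H2A and H2B pair at the telomeric end of the chromosome 6 cluster, and, like H1-6, they are known as testis histone genes. The nearest peak to the H2AC1 start was 42896 to 43405 bp away in the SKBR3 lists and 65351 to 66008 bp away in the MDA-MB-453 lists. H1-6 lay closer to acetylated chromatin, with the nearest peak 1515 to 2481 bp away in SKBR3 and 2597 to 3037 bp away in MDA-MB-453. H1-1, a linker histone gene known for a narrow range of expression, had its nearest peak 1221 to 1534 bp away in SKBR3 and 2119 to 2212 bp away in MDA-MB-453. The H2AC1 and H2BC1 pair was thus far from any peak, whereas the H1 genes without one lay within a few kilobases of a peak.

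The strongest histone promoters were those of H2BC21, H2AC20 and H2AC21 on 1q21.2, which shared 1 peak in every list. H2BC21 lies head to head with H2AC20 and has the longest main transcript of the family. Their peak ranked 59th and 42nd in the untreated SKBR3 lists, 56th and 73rd in the TWEAK SKBR3 lists, 31st and 29th in the untreated MDA-MB-453 lists and 26th in both TWEAK MDA-MB-453 lists. This put the 3 genes at the 99.9th percentile of all 8 lists, close to the ceiling of the measure. Its fold enrichment over input, as the peak caller gave it, was 28.4 to 37.5 in SKBR3 and 38.1 to 46.1 in MDA-MB-453, and its width was 5585 to 6815 bp.

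To show what a strongly acetylated and an unmarked histone promoter look like, the sequence between the starts of the H2BC21 and H2AC20 pair (chr1:149886683-149886917, hg38, plus strand, 235 bases) and that between the starts of the H2AC1 and H2BC1 pair (chr6:25726563-25726776, plus strand, 214 bases) are given with the matches to searched motifs in capitals.
H2BC21 to H2AC20: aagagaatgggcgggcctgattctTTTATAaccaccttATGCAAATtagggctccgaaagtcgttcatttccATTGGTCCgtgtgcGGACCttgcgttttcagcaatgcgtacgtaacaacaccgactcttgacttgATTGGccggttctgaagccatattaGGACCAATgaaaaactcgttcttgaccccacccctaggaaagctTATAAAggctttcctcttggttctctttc
H2AC1 to H2BC1: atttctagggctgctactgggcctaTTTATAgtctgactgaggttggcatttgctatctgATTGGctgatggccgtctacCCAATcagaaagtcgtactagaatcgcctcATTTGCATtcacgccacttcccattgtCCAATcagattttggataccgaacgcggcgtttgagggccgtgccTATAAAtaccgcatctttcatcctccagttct
Both stretches hold a TATA box facing each gene, CCAAT boxes and 1 octamer, the element bound by POU2F1 (Oct-1). Matches to GGTCC on either strand were found in the H2BC21 stretch, where some overlap a CCAAT box, and not in the H2AC1 stretch. Apart from these, the unmarked pair held the same kinds of motif as the pair with the highest percentile.

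Over the family, promoter sequence was summarised from 250 bases before to 50 bases after the main start, on both strands, for all 68 histone genes and all 19970 genes. TATAAA was found in 66.2% of histone promoters and 9.73% of all promoters. CCAAT was found in 86.8% against 36%, and it was in every H1, H2A, H2B and H3 promoter but in 35.7% of H4 promoters. The octamer ATTTGCAT was found in 38.2% against 1.61%, namely in 70.6% of H2A and 77.8% of H2B promoters and in no H1, H3 or H4 promoter. GGTCC, the core of an H4 promoter element bound by HINFP, was in 92.9% of H4 promoters but in 33.8% of histone promoters as a whole, against 51.7% of all promoters. Of the E2F-like forms, TTTNGCGC was in 19.1% of histone promoters against 2.28%, mostly of H2A and H2B genes, and TTNCCGC in 23.5% against 16%, with 92.9% of H4 promoters. The histone promoters were also poorer in G and C, with a median of 44.2% against 63.7%. A match is a description of the letters and not a bound site.

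**Figure D2:**
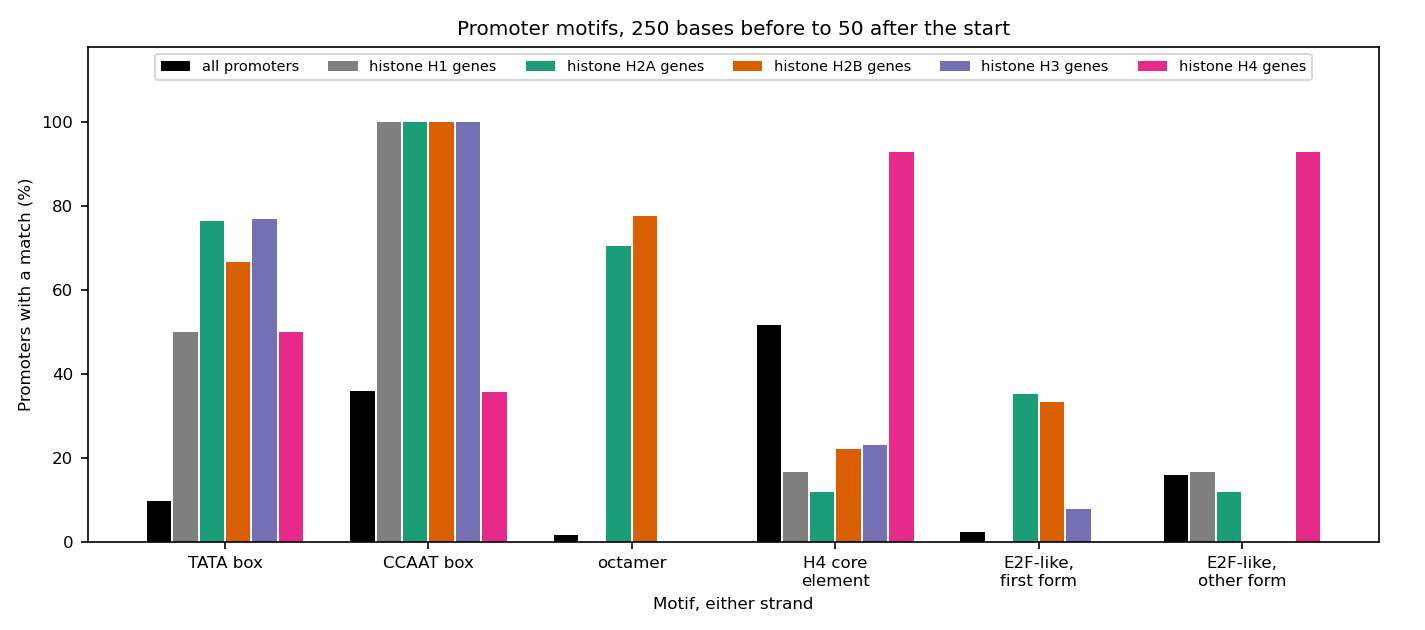
Share of promoters (y axis, %) with a match on either strand to each of 6 motifs (x axis), for all protein-coding genes in black and for each histone class in colour. The octamer is seen in H2A and H2B genes (70.6% and 77.8%), and the H4 core element and the last E2F-like form stand at 92.9% in H4 genes.

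The mRNA stem-loop, the site of SLBP binding and of 3′ processing, was found within 150 bases after the stop codon in 65 of 68 genes, 26 to 71 bases downstream of it. The form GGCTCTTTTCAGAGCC was carried by 40 genes. H2AC1, H2BC1, H1-1 and H1-6, the genes without a peak, all carried a stem-loop, the H1 genes in the form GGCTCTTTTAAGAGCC. No match was found for H3C6, H2BC10 and H4C13. H2A and H2B genes formed 12 head to head pairs with 193 to 250 bases between their starts.

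Histone genes shared their peaks to a large extent, which bears on every count over genes. In each list 24 to 28 peaks lay within 1 kb of the starts of all the histone genes that had one, and 18 to 22 of these peaks served at least 2 genes. The most on 1 peak was 9 genes, H2BC13 to H2BC15, under a peak of 34598 bp (chr6:27806387-27840984) in untreated MDA-MB-453 replicate 1. In terms of the best peak in every list, the 64 genes with a peak in at least 2 lists fell into 32 distinct sets. Members of a set had the same values, so they are not independent measurements. The only other protein-coding genes on these peaks were BOLA1 and an unnamed model, ENSG00000282988.

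The peaks were wide. For the 61 histone genes with a peak in all 8 lists the mean width had a median of 9986 bp and a range of 3311 to 25112 bp, whereas the median of all 9913 genes with a peak in all 8 lists was 2281 bp. A mean width over 5000 bp was found for 54 of the 61 (88.5%) and for 14.2% of all such genes. These figures count a shared peak once for each gene under it, and widths per distinct peak were not summarised. The mean percentile had a median of 94.9 for the histone genes (range 82.8 to 99.9) and 80 for all such genes. The widest were H2AC19, H3C15 and H4C15 at 25112 bp, and the narrowest were H2AC25 and H2BC26, a head to head pair on 1q42.13, at 3311 bp, followed by H4C3 at 3354 bp. Width and percentile did not order the genes alike, since H2AC20 and H2AC21 had the highest percentile with a mean width of 6100 bp.

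The classes of histone had similar medians. The median percentile over genes with a peak in all 8 lists lay between 91.1 (H3) and 93.6 (H1) in SKBR3 and between 96.6 (H2B) and 97.9 (H4) in MDA-MB-453. Within H1, the highest mean percentile was that of H1-2 (97.3) and the lowest among genes with a peak that of H1-5 (91.6). Within H3, H3C1 stood at 99.3 and H3C11 and H3C12 at 90.3. Among H4 genes, H4C1, which shares the H3C1 peak, stood at 99.3, H4C6 at 82.8, and the 3 genes with a peak in some lists only, H4C4, H4C9 and H4C7, were all H4 genes. The highest H2A genes were H2AC20 and H2AC21 and the lowest with a peak was H2AC17 at 90.3. The highest H2B gene was H2BC21 and the lowest with a peak was H2BC6 at 87.9.

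To examine how the lines differed, percentiles were compared with limma over all 12600 genes with a peak in at least 2 lists. Of the 64 histone genes tested, 26 (40.6%) were lower in SKBR3 than in MDA-MB-453 and 0 were higher, with 28 at an unadjusted p under 0.05. Over all genes 32.9% were lower in SKBR3 and 32.7% higher. In this fit the share of histone genes that were lower was thus near the background, while none was among the genes that were higher. With replicate number fitted within each line, 51 of the 64 were lower and 4 higher, beside 4398 and 4323 of all 12600 genes. The pairing which that fit assumes is not established. In MDA-MB-453 the class medians were 96.6 to 97.9, near the top of the scale. Whether this limited the number of genes called higher in SKBR3 was not tested. The difference, SKBR3 minus MDA-MB-453, was below 0 for 58 of the 64, with a median of -3.47 points against -0.335 for all genes. Every MDA-MB-453 percentile lay above every SKBR3 percentile for 34 of the 64 (31.5% of all genes), and the reverse held for 0 (29.3% of all genes). H4C4 and H4C9, which are among the 26, passed the filter through MDA-MB-453. With only genes tested that had a peak in all 8 lists, 26 of 61 histone genes were lower, 24 of them shared. In that setting 3032 of all 9913 genes were lower. The 26 genes of the main fit lay in 13 of the 32 sets of shared peaks. With 1 promoter kept per shared peak, 13 of 32 histone promoters were lower, beside 3701 of all 11223 promoters.

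The count depended on the libraries. It fell when any MDA-MB-453 library or an SKBR3 library numbered 1 was left out, and rose when an SKBR3 library numbered 2 was left out. Its place beside the background share changed too. Each of these fits leaves 1 library in a group, so effect sizes are given in place of counts. Without 1 MDA-MB-453 library, the histone genes had a median difference of -3.02 to -3.98 points (-0.102 to -0.509 for all genes). Without untreated SKBR3 replicate 2 it was -4.76 points (-0.214). The median difference of the histone genes was -1.76 points without TWEAK SKBR3 replicate 1 (-0.752 for all genes), -2.18 without untreated SKBR3 replicate 1 (-0.472) and -5.19 without TWEAK SKBR3 replicate 2 (-0.0536). The lists also differed in length, and when all were shortened to 36148 peaks the median of all genes moved to -4.47 points and that of the histone genes to -5.24, with 28 lower. In that setting 2779 genes were higher in SKBR3 and 5239 lower, against 4123 and 4144 with whole lists. With peaks of q under 1e-05 alone, 2369 were higher and 5042 lower, and the medians were -6.95 for all genes and -9.96 for histone genes. Some genes were lower in SKBR3 in every alternative that kept all libraries and tested them. Among these were H2BC6, H2AC25 with H2BC26, H2BC18 with H3C13, H4C14 with H3C14 and H2AC18, and H2AC15 with H2BC15. With whole lists, H2BC6 was scored mostly at an annotated start upstream of its main one, as described below. Genes joined by "with" share a peak and are not independent, and only 1 of them was tested with 1 promoter per shared peak. H4C4 was also lower wherever it was tested, but its call rests on zeros entered for every SKBR3 list. It was not tested among the genes with a peak in every list.

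**Figure D3:**
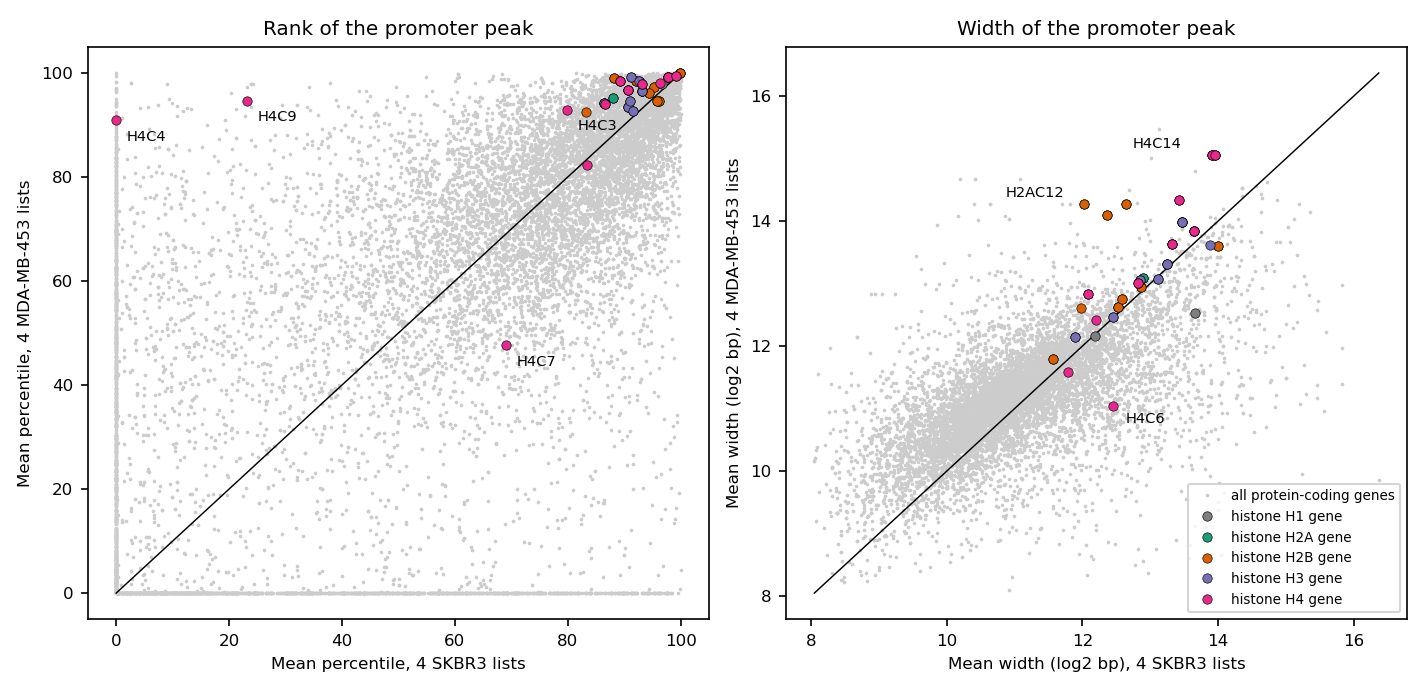
Mean percentile (left) and mean log2 width in bp (right) of the best promoter peak in the 4 SKBR3 lists (x axis) and the 4 MDA-MB-453 lists (y axis), with histone genes in colour and all protein-coding genes in grey. Most histone genes lie at the upper right, slightly above the line of equality (58 of 64 for percentile), H4C4 and H4C9 lie far to the left, and H4C6 lies below the line for width.

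H4C4 differed most between the lines. Its percentile was 0 in all 4 SKBR3 lists, where it had no peak. It was 92 and 90.1 in the untreated and 91.8 and 89.9 in the TWEAK MDA-MB-453 lists, so that the lines did not overlap and the treatments did. Since 0 was entered for each absent peak and the gene passed the filter through MDA-MB-453 alone, this is a difference in presence and no p-value is given for it. A peak in all 4 MDA-MB-453 lists and no SKBR3 list was found for 1 of 68 histone genes, against 3.24% of all genes, and the reverse for 0 of 68, against 2.79%.

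The H4C4 peak in MDA-MB-453 was 7961 to 8788 bp wide (chr6:26182671-26190631 in untreated replicate 1) and also covered the main start of H2BC6, the neighbouring H2B gene. In SKBR3 the nearest peak was 4038 to 4707 bp from the H4C4 start and 7358 to 10058 bp from the main H2BC6 start. H2BC6 has another annotated start 11.7 kb upstream of its main one, and this start lay inside a peak in all 8 lists. H2BC6 was therefore counted as present in SKBR3 through its upstream start, although its main transcript lay under a peak in MDA-MB-453 only. Its percentiles were 80.4 to 87.3 in SKBR3 and 91.6 to 93.9 in MDA-MB-453 (difference -9.19, SE 1.27, limma adjusted p = 0.00102). In MDA-MB-453 the peak at the upstream start gave the values of untreated replicates 1 and 2 and of TWEAK replicate 2. The value of TWEAK replicate 1 came from the H4C4 peak. The difference was thus mostly one at the upstream start. The peak on the other side, over H3C4, H2AC7, H2BC7 and H4C5, was present in all 8 lists, so the stretch over H4C4 that had no SKBR3 peak was flanked by peaks in both lines.

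The 150 bases before the H4C4 start (chr6:26189113-26189262, minus strand, hg38) are given because this promoter had a peak in MDA-MB-453 only, with motif matches in capitals.
H4C4: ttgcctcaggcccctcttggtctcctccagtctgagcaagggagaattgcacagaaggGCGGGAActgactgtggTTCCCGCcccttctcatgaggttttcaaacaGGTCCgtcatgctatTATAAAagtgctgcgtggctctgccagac
They hold a TATA box, a GGTCC match and 2 TTNCCGC matches, one on each strand. GGTCC and TTNCCGC were each found in 92.9% of H4 promoters, so the H4C4 promoter did not stand apart from them in these motifs.

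**Figure D4:**
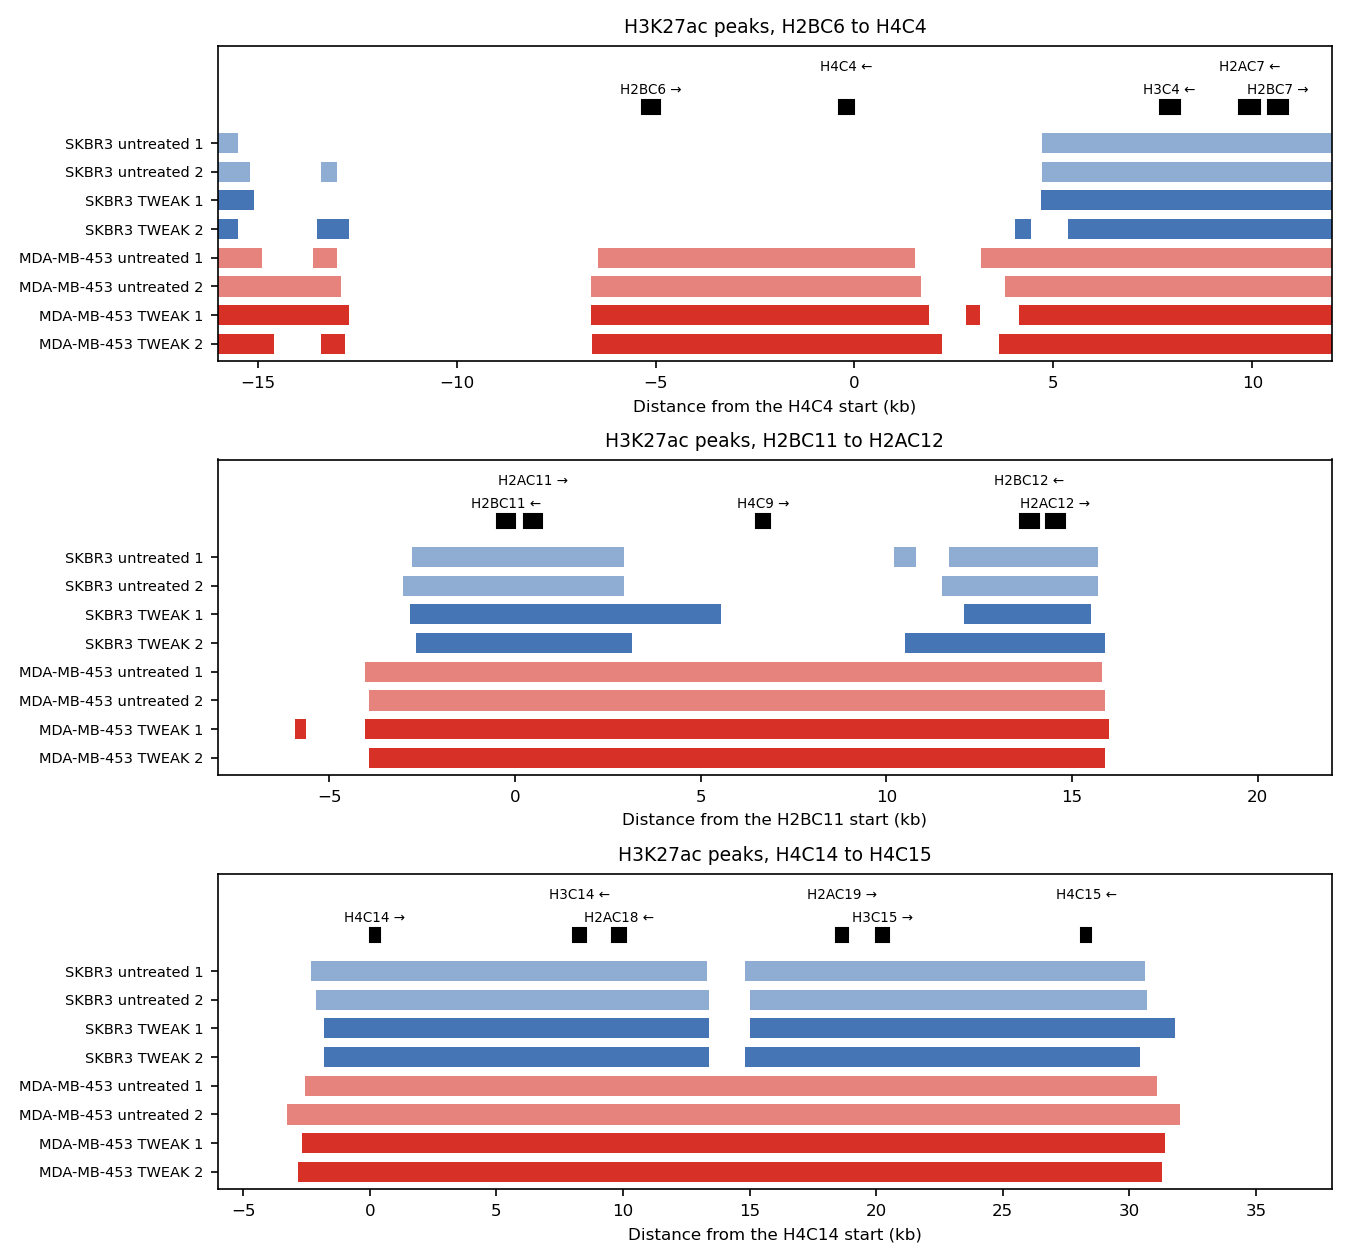
Peaks (bars) of the 8 lists around H4C4, H2BC11 and H4C14, drawn by distance in kb from the start of the named gene (x axis), with SKBR3 in blue, MDA-MB-453 in red, the TWEAK lists in darker shades and main transcripts as black boxes with arrows for direction. A peak of 7961 to 8788 bp over H2BC6 and H4C4 is seen in the 4 MDA-MB-453 lists only, and single MDA-MB-453 peaks stand where SKBR3 has separate ones.

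H4C9 was next. It had no peak in 3 SKBR3 lists, a percentile of 92.7 in TWEAK SKBR3 replicate 1, and percentiles of 94.7, 94.6, 94.5 and 94.9 in MDA-MB-453. The value in TWEAK SKBR3 replicate 1 came from a peak that ended 939 bp from the H4C9 start, just inside the 1 kb window, and no SKBR3 peak covered the start. Its difference likewise rests on entered zeros and is given with no p-value. In MDA-MB-453 a single peak of 19834 to 19993 bp covered the whole stretch from H2BC11 and H2AC11 through H4C9 to H2BC12 and H2AC12, whereas in SKBR3 each head to head pair had a peak of its own and H4C9 lay in the gap between them. Within this stretch of 21.7 kb, peaks covered 42.3 to 51.1% in SKBR3 and 86.3 to 88.1% in MDA-MB-453.

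The 4 genes beside H4C9 were narrower in SKBR3. H2BC12 and H2AC12 peaks were 3420 to 5473 bp wide in SKBR3 and 19834 to 19993 bp in MDA-MB-453, a log2 difference of -2.25 (SE 0.15, adjusted p = 0.000123, limma). Their percentiles were 94, 98.3, 93.8 and 97.2 in SKBR3 and 94.5 to 94.9 in MDA-MB-453, and those of H2BC11 and H2AC11 were 92.7 to 98.7 and 94.5 to 94.9, so that the lines overlapped. Over these 4 genes the median of the differences, SKBR3 minus MDA-MB-453, was 1.27 points. H4C9, without a peak in all 8 lists, is left out of it.

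After H4C4 and H4C9, the largest differences among the genes called were those of H4C3, of the pair on 1q42.13 and of H2BC6, given above. H4C3, at 73.7 and 85.6 untreated and 72.6 and 87.6 with TWEAK in SKBR3, stood at 92.3 to 94.5 in MDA-MB-453. Its difference was -13.1 points (SE 3.93, limma adjusted p = 0.0251), and all SKBR3 values were the lower ones. H2AC25 and H2BC26, which share 1 peak, stood at 86.9 and 92.7 untreated and 84.5 and 88.8 with TWEAK in SKBR3. In MDA-MB-453 they stood at 99 to 99.2, within the strongest 288 to 367 peaks of each list, against ranks of 3165 to 7025 in SKBR3. The difference was -10.9 points (SE 1.51, limma adjusted p = 0.00105).

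The remaining chromosome 1 genes lie on 1q21.2. H2BC18 and H3C13 shared a peak at percentiles of 88.5, 93.2, 90 and 92.7 in SKBR3 and 99.1 to 99.4 in MDA-MB-453, a difference of -8.06 points (SE 1.13, adjusted p = 0.00111, limma). H4C14, H3C14 and H2AC18 stood at 97.3 to 98.2 in SKBR3 and 99.1 to 99.3 in MDA-MB-453 (difference -1.47, SE 0.329, limma adjusted p = 0.00806). H2AC19, H3C15 and H4C15 had nearly the same values and a difference of -1.4 points (SE 0.372, limma adjusted p = 0.016). In MDA-MB-453 these 6 genes were under 1 peak of 33681 to 35268 bp in every list, and in SKBR3 under a pair of peaks of 15149 to 16741 bp each, H4C14 to H2AC18 on one and H2AC19 to H4C15 on the other. The log2 width difference was -1.16 for the first 3 (SE 0.05, limma adjusted p = 3.35e-05) and -1.1 for the others (SE 0.06), all narrower in SKBR3.

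These 6 genes sit in a near-perfect inverted repeat. The stretch chr1:149817486-149843536 matched chr1:149850276-149876379 on the opposite strand over 26120 aligned bases at 99.58% identity. H4C14 and H4C15, H3C14 and H3C15, and H2AC18 and H2AC19 are therefore copies whose reads could not all be told apart, and how reads with several placements were treated is not stated, so their separate values are uncertain. The gap between the SKBR3 peaks, about 13.4 to 14.8 kb from the H4C14 start, lay between the arms of the repeat.

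Over all histone genes, width was lower in SKBR3 for 19 of 61 (34.1% of all 9913 genes) and higher for 1 (17.7% of all genes), with 21 at an unadjusted p under 0.05. The count of narrower genes was 12 without TWEAK MDA-MB-453 replicate 1 and 12 without untreated SKBR3 replicate 1. The median log2 difference was -0.213 for the histone genes and -0.193 for all genes, so the median and the share of narrower genes were near the background, while the share of wider genes (1.64%) was below it. The gene that was wider in SKBR3 was H4C6, at 4816 to 6393 bp against 1977 to 2356 bp in MDA-MB-453 (log2 difference 1.42, SE 0.11, limma adjusted p = 0.000245). Its percentiles overlapped between the lines, at 80.4 to 87.4 in SKBR3 and 81.2 to 83.7 in MDA-MB-453. H2AC15 and H2BC15 were narrower in SKBR3 by 1.73 on the log2 scale, but their MDA-MB-453 widths ran from 6824 to 34598 bp, as the same stretch was called as 1 peak in one list and as several in another. A percentile also belongs to the whole called peak, so it can depend on such joining. In MDA-MB-453 H3C1 and H4C1 stood at 99 under peaks of 15067 and 15165 bp, and at 99.8 under peaks of 3423 and 3653 bp. The part of joining in the line differences in percentile was not tested.

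To examine the response to TWEAK, gains and losses of promoter peaks were counted first. No histone gene had a peak in both TWEAK lists and neither untreated list of a line, nor the reverse. Over all genes 0.346% were gained and 0.646% lost in SKBR3, and 0.25% gained and 0.0751% lost in MDA-MB-453, so that fewer than 1 of 68 would be the background share. H4C7 moved between lists without regard to treatment, with a peak in 3 of 4 SKBR3 lists and 2 of 4 MDA-MB-453 lists. Its start was never inside a peak, and the edge of the neighbouring H3C7 and H2BC9 peak lay 208 to 1392 bp away in SKBR3 and 956 to 1007 bp away in MDA-MB-453, on either side of the 1 kb limit. Its presence thus turned on where a peak edge fell, as did its line difference of 21.3 points (SE 33.2, limma adjusted p = 0.591), which was higher in SKBR3 and not called.

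In limma, 0 of 64 histone genes changed in percentile with TWEAK in SKBR3, 0 in MDA-MB-453, and 0 differed in response between the lines. None had an unadjusted p under 0.05 in any of the 3 contrasts. Without TWEAK SKBR3 replicate 2, 1 gene (H4C9) was called in SKBR3 and in the interaction, resting on the peak edge 939 bp from its start. Over all genes 0.286% rose and 0.238% fell in SKBR3, 0.0238% rose and 0.0159% fell in MDA-MB-453, and for the interaction 0.0714% were higher and 0.0794% lower in SKBR3. With so few calls among all genes, none among 64 is the background count. The median TWEAK difference of the histone genes was -0.00956 points in SKBR3 and 0.0576 points in MDA-MB-453, beside -1.13 and 0.299 for all genes. The 95% intervals of these differences had half-widths from 0.737 points for the narrowest to 114 points for H4C7, with a median of 6.19 points in each line, so the size of change that could be detected differed widely between genes.

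The smallest p-value with TWEAK in SKBR3 was that of H2BC6, at 83.1 and 87.3 untreated and 82.4 and 80.4 with TWEAK (difference -3.83, SE 1.79, limma adjusted p = 0.444). Both TWEAK values were below both untreated values. They belong to the peak at the upstream H2BC6 start, as the main start lay 7358 to 10058 bp from the nearest SKBR3 peak. H4C9 (difference 46.4, SE 26.4, limma adjusted p = 0.528) and the pair H2AC25 and H2BC26 (difference -3.18, SE 2.14, limma adjusted p = 0.591) came next. The same 4 genes had the smallest p-values for the difference in response between the lines, with limma adjusted p-values of 0.743 to 0.784. In MDA-MB-453 H2AC15 and H2BC15 stood at 97.6 and 98.5 untreated and at 98.2 and 99.4 with TWEAK, so that the treatments overlapped (difference 0.762, SE 1.96, limma adjusted p = 1). These percentiles belong to differently joined peaks, 34598 and 18625 bp wide untreated and 21501 and 6824 bp wide with TWEAK. H1-4 and H2BC5 came next (difference 0.832, SE 2.43, limma adjusted p = 1). In width, 0 of 61 changed in either line, with 0 at an unadjusted p under 0.05, against 0.444% wider and 0.565% narrower of all genes in SKBR3 and 0.0101% and 0.0303% in MDA-MB-453.

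The libraries of SKBR3 differed by replicate number more than by treatment at the histone genes. H4C2, H3C2 and H2AC4, which share 1 peak, stood at 83.1 in untreated replicate 1 and 85.2 in TWEAK replicate 1, and at 94.5 in untreated replicate 2 and 94.4 in TWEAK replicate 2. H3C12, H2AC17 and H2BC17 stood at 80.2 and 80.7 in the libraries numbered 1 and at 93.2 and 91.5 in those numbered 2. In both treatments the library numbered 1 was below that numbered 2 for 50 of 64 histone genes, against 23.4% of all genes. The median difference, replicate 2 minus replicate 1, was 5.27 points untreated and 5.4 points with TWEAK for the histone genes, and 0 and -0.354 points for all genes. In MDA-MB-453 the same held for 17 of 64, against 24.6% of all genes. Over whole lists, the share of peaks with q under 1e-05 was 39.4% and 52.6% in untreated SKBR3, 48.3% and 48.8% in TWEAK SKBR3, and 59.8 to 63.8% in MDA-MB-453. Its part in the replicate pattern and in the line difference was not tested.

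**Figure D5:**
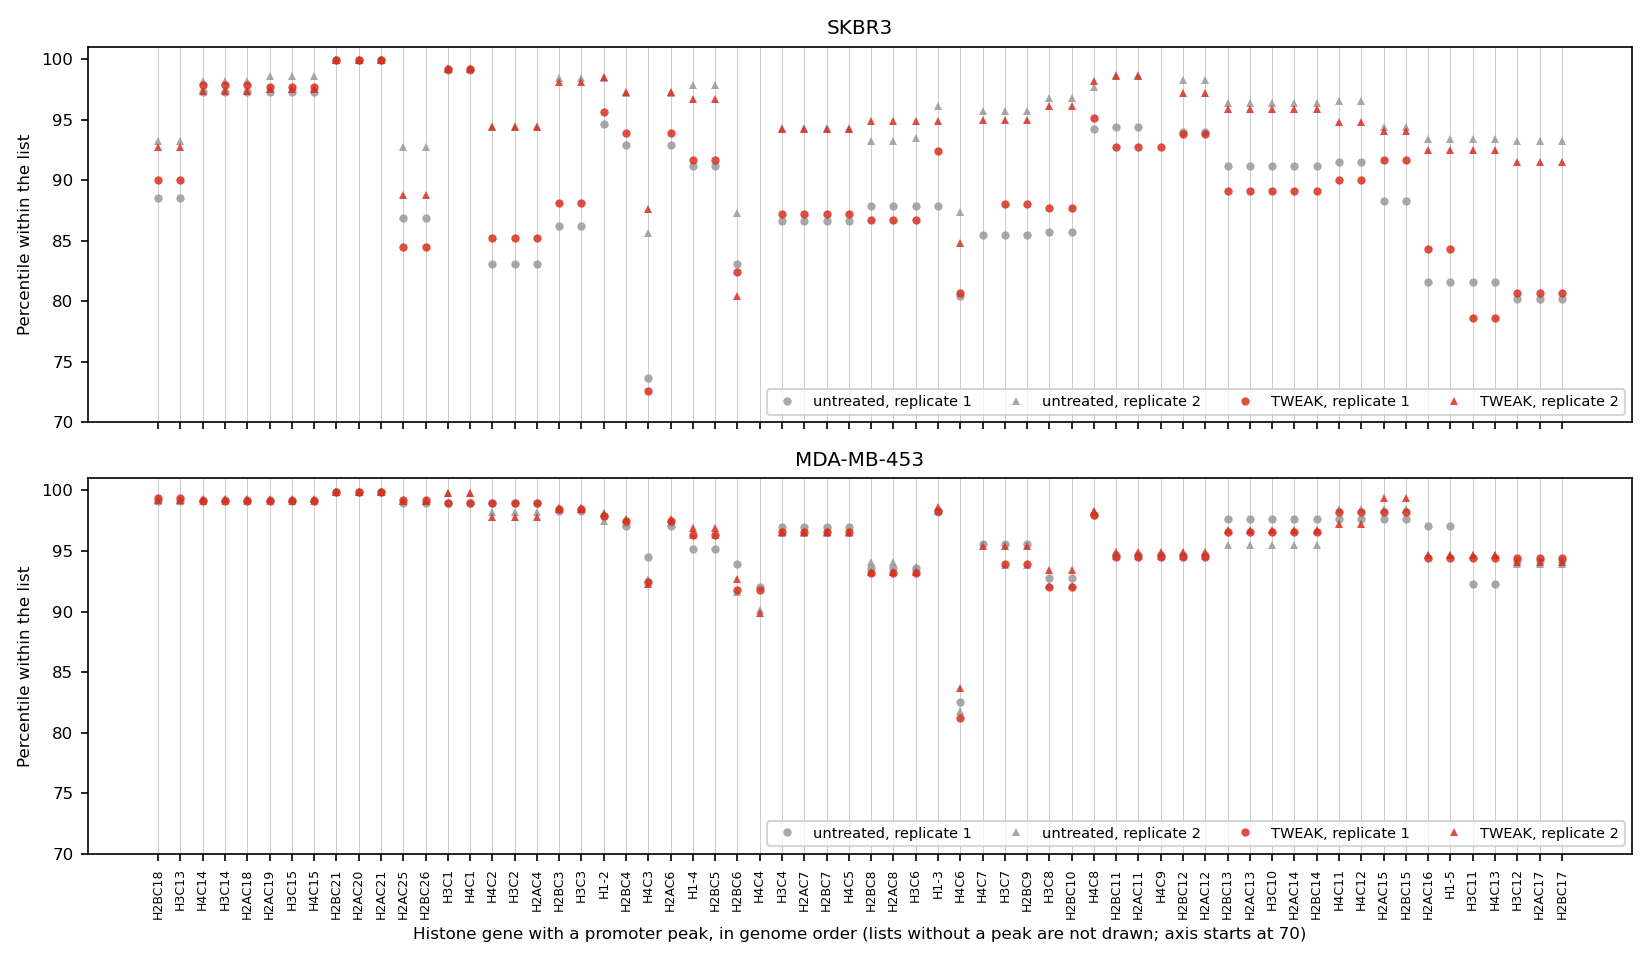
Percentile of the best promoter peak in each library (y axis, from 70) of each histone gene with a peak (x axis, in genome order), with SKBR3 in the upper and MDA-MB-453 in the lower panel, untreated in grey, TWEAK in red, replicate 1 as circles and replicate 2 as triangles. In SKBR3 circles lie below triangles for most genes whatever the colour, as for H4C2 at 83.1 and 85.2 against 94.5 and 94.4, and in MDA-MB-453 the 4 symbols of most genes lie close together.

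Genes that control the family were described next, from a list of 20. NPAT, the S phase coactivator of the clusters, stood at a mean percentile of 91 in MDA-MB-453 against 89.5 in SKBR3, which was not called (limma adjusted p = 0.246). Of the 20, 16 had a peak in all 8 lists, 9 were lower in SKBR3 and 3 higher, and 0 changed with TWEAK in either line. Over all genes 49.6% had a peak in all 8 lists, and 32.9% of those tested were lower and 32.7% higher. Those lower in SKBR3 were CCNE2 (cyclin E2, 9.67 against 80.5), E2F1 (29.6 against 83.8), CASP8AP2, a histone locus body protein (50.4 against 80.8), CSTF2, LSM10, a component of the U7 snRNP (69.3 against 93.9), ZNF473, CDK2, SLBP, the stem-loop binding protein (86.1 against 90.6), and POU2F1 (90.4 against 93.4). Those higher in SKBR3 were CCNE1 (cyclin E1, 83 against 18.7, difference 64.4, SE 4.56, limma adjusted p = 5.8e-05), GON4L (71.7 against 53.8) and LSM11 (22.8 against 4.95). CCNE2 had a peak in 1 of 4 SKBR3 lists, E2F1 and CSTF2 in 3 of 4, and LSM11 in 3 of 4 SKBR3 and 2 of 4 MDA-MB-453 lists. The means of these genes thus include entered zeros, and their differences are partly differences in presence. The cyclin E genes were ordered oppositely in the lines, for CCNE2 largely through absent peaks in SKBR3. HINFP was at 48.3 and 58.1 and was not called (limma adjusted p = 0.105).

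Of 13 genes for histones made outside the clusters or throughout the cell cycle, 11 had a peak in all 8 lists, and of these 11 tested 7 were lower in SKBR3, 1 was higher (H2AX) and 0 changed with TWEAK, beside 32.9% lower, 32.7% higher and, in SKBR3, 0.286% risen and 0.238% fallen with TWEAK over all genes. H3-3B, which encodes H3.3, stood at 96.8 in SKBR3 against 99.6 in MDA-MB-453. Their peaks had a median mean width of 4462 bp. MACROH2A2 and H3-5 had no promoter peak. H4C16 and H2AJ, both among the 7 lower genes, had the same mean percentile (91.7) and TWEAK difference (0.599) in MDA-MB-453. They may therefore share a peak there and not be independent. Of the 20 other protein-coding genes that lie between the histone genes of a cluster, 11 had a peak in all 8 lists, with a median mean width of 1506 bp and a median percentile of 73.8, both below those of the histone genes around them, and 7 had none, SLC17A1 to SLC17A4 among them. TRIM38 had a peak in the 4 SKBR3 lists only and HFE, the haemochromatosis gene that lies close to H4C3, in the 4 MDA-MB-453 lists only. Of the 13 neighbours tested 3 were higher and 6 lower in SKBR3, beside the same shares of all genes. ENSG00000282988, among the 6, lies on the H3C4 to H4C5 peak and had the values of those histone genes.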

How the data were processed

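H3K27ac ChIP-seq was analysed in 8 libraries of SKBR3 and MDA-MB-453. Per the labels and the study's methods, reads had been trimmed (Trimmomatic) and aligned to hg38 (Bowtie2), and the authors called peaks in each library by MACS2 against input and dropped blacklisted regions; versions, thresholds and the handling of multiply mapped reads were not given in the sources used here. The deposited columns were a peak score (for nearly all peaks 10 times −log10 q, rounded down), the fold enrichment over input, and −log10 p and q. The 2 inputs had no list and were not analysed here. DiffBind, used by the authors, needs reads.

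Genes and basic starts came from GENCODE release 44, and sequences from hg38. Score percentiles (genes with a peak in at least 2 lists) and log2 widths (in all 8) were fitted with limma 3.58.1 (trended, 8 libraries, 4 groups), with Benjamini-Hochberg adjustment over all genes at 0.05. On simulated shifts the fit was checked. The copy on 1q21.2 was aligned with blastn 2.17.0. Members and lists were chosen with earlier results of these data known. Genes were named by rule: those absent or in some lists only, extremes of percentile per class and of width, the 6 largest line differences, the 3 smallest TWEAK p-values per contrast, and all on chromosome 1. Genes sharing a peak with a named one were named too. H4C13, H4C2 and other genes outside the rule are cited for other reasons after their values were seen. Alternatives were other rankings, windows, filters, list lengths, the replicate block and leaving out each library.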

Additional observations from a re-analysis of the deposited data

How the results depend on the processing

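The number of histone genes lower in SKBR3 in percentile was 26 and ranged from 11 to 41 when each library was left out, and it was 13 of 32 with 1 promoter per shared peak. Ranking by fold enrichment gave 29, of which 20 were among the 26, beside 3880 of all 12600 genes. Ranked among promoter peaks alone, the median difference was -10.2 points for histone genes and -1.05 for all genes. In that setting 26 histone genes were lower, beside 4509 of all 12600 genes. The number higher in SKBR3 was 0, and 1 (H1-1) with starts taken within 2 kb. Replicate numbers are shared by the labels' groups, but deviations of same-numbered libraries correlated at 0.26 in SKBR3 and -0.0433 in MDA-MB-453 for percentile, and at 0.236 and 0.0263 for width, over 2 pairs a line, so no pairing is established. With a replicate block, 51 histone genes were lower in SKBR3, the 26 among them, and 4 were higher (H2BC11, H2AC11, H2BC12 and H2AC12). Over all 12600 genes the block gave 4398 lower and 4323 higher. The number narrower in SKBR3 was 19, 12 with array weights, 8 with 1 promoter per shared peak and 12 to 19 without each library, and the number wider was 1 or 2 without each library. With TWEAK in SKBR3, 1 gene was called within 500 bp (H4C13, whose nearest peak edge was 595 and 642 bp away untreated and 362 and 461 bp with TWEAK), as was 1 in the interaction, and leaving out each library gave 0 or 1 in both (H4C9 without TWEAK SKBR3 replicate 2, where the lone library is assumed to vary like the others). The number of genes present in all lists was 61, 62 within 2 kb, 60 within 500 bp and 29 with 1 promoter per shared peak. Presence in MDA-MB-453 only rose from 1 to 2 within 500 bp and to 2 without TWEAK SKBR3 replicate 1. Gains and losses with TWEAK in SKBR3 were 1 within 500 bp and 0 to 2 without each library. In MDA-MB-453, TWEAK called 0 under the 21 alternatives run for percentile and the 17 for width. Depth is unknown and limits every absence to these lists, and percentiles near 100 leave little room for a rise.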
